A study of Drosophila melanogaster with 4 samples.

Results

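The regions described here are the places on the X chromosome of Drosophila melanogaster at which HP1c was found enriched in both ChIP-seq replicates. They were chosen by the authors' own calls: every replicate 1 region on X that overlapped a replicate 2 region by 1 base or more was taken. Of the 1044 replicate 1 regions on X, 844 met this (80.8%; exact binomial 95% interval 78.3 to 83.2, which covers counting error only), out of 4669 replicate 1 regions in the whole genome. Regions of the autosomal arms 3L and 3R chosen in the same way stand beside them as background, with 719 of 865 on 3L (83.1%, 80.5 to 85.6) and 853 of 1037 on 3R (82.3%, 79.8 to 84.5). Read from replicate 2, 823 of 1063 regions on X (77.4%), 709 of 906 on 3L (78.3%) and 850 of 1037 on 3R (82.0%) recurred. X was therefore not the arm on which the largest share of regions recurred, in either list. Split into 4 classes by the authors' score, 1 being the weakest, both lists had X lowest in classes 2 and 3. In class 2 the shares on X, 3L and 3R were 65.4%, 79.6% and 78.8% in replicate 1. In replicate 2 they were 55.9%, 78.2% and 80.2%. In class 3 X had 93.4% and 91.9%, and the other arms 97.3% to 98.8%. In class 1 X was lowest in replicate 1 (53.3%) but highest in replicate 2 (56.8%). In class 4 the shares ran from 98.5% to 100%.

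The series holds 2 HP1c ChIP samples and 2 input samples, all from wild-type embryos of the strain Oregon-R, staged at 14 to 16 h and fixed in 1.8% formaldehyde. All 4 share genotype, strain and stage. The labels give neither the sex of the embryos nor whether the replicates were separate collections, so the spread between the replicates may be technical. Each deposited list gives coordinates on FlyBase release 5, with a score per region. No header or label states the scale of the score, and the read depth behind a region is unknown.

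HP1c belongs to the heterochromatin protein 1 family, whose members carry a chromodomain, which binds modified histone tails, and a chromo shadow domain, through which they bind partner proteins. HP1a is the family member best known from pericentric heterochromatin. HP1c in Drosophila is known mainly from euchromatin, where it is found with the zinc-finger proteins WOC and ROW at active genes. The X of Drosophila is a large, mostly euchromatic chromosome.

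The calls of both replicates made the choice, so number, width, score and spacing of the chosen regions are described without a test. Values from both lists are given instead, one counting the replicate 1 regions and the other the 823 replicate 2 regions that recur. Neighbouring regions share chromatin, libraries and input, and are not replicates of each other.

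The X held more reproducible HP1c regions per Mb than either autosomal arm, and they took up more of its sequence. There were 37.6 per Mb on X, 29.3 on 3L and 30.6 on 3R when replicate 1 regions were counted. The replicate 2 regions gave 36.7, 28.9 and 30.5. The X value was 1.26 times that of 3L and 3R together in replicate 1 and 1.23 times in replicate 2. The regions covered 2270300 bp, or 10.1% of X, against 7.23% of 3L and 7.63% of 3R. In replicate 2 the covered shares were 10.5%, 7.36% and 7.67%. The gap between X and either arm was wider than that between the 2 readings, for both number and coverage. Both readings are of overlapping regions, so their closeness is in part fixed. Over all regions of each list, recurring or not, the ratio of X to 3L and 3R was 1.28 in both lists for number. The authors' combined list, described below, ran the other way. It held 1029 regions on X (22422827 bp), 1324 on 3L (24543557 bp) and 1669 on 3R (27905053 bp), fewest per Mb on X.

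The regions matched closely in place. Of the 844, 827 met 1 replicate 2 region and 17 met 2. Of the 823 replicate 2 regions, 787 met 1 replicate 1 region, 34 met 2 and 2 met more. The midpoints of a region and its partner, the replicate 2 region sharing the most bases, lay a median of 118 bp apart, with 90% within 939 bp. A median of 96.6% of the region's bases lay inside the partner. The partners were 812 distinct replicate 2 regions, so some were partner to more than 1 region. For 771 of the 844 (91.4%) the overlap covered at least 50% of both regions, against 93.9% on 3L and 94.96% on 3R.

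The choice itself has a soft edge. The region with the fewest shared bases, X 18264411 to 18266555, had 175 bases in common with a replicate 2 region that ended inside it. The next, X 3290200 to 3291579 and X 5570970 to 5572832, shared 506 and 510 bases. On the other side of the rule, X 21149831 to 21151160 lay 4 bp from a replicate 2 region, X 8136139 to 8137637 lay 15 bp away and X 8016003 to 8017922 lay 55 bp away, and all were left out. These regions just inside and just outside had low replicate 1 scores, all below the lower quartile of 0.596 on X: 0.532, 0.459 and 0.325 inside and 0.480, 0.501 and 0.514 outside.

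Scores on X ran from 0.282 to 2.81 in replicate 1, with a median of 0.827 and an interquartile range of 0.596 to 1.24. The partners in replicate 2 had a median of 1.02. Because no scale is stated, scores are set against each other only within 1 list. On 3L the replicate 1 median was 0.701 and on 3R 0.727. In the replicate 2 list the medians were 1.00 on X, 0.870 on 3L and 0.884 on 3R. X was highest in both lists, and its median exceeded that of 3L and 3R together by 0.111 in the first list and 0.122 in the second.

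This step upward was already there, at a smaller size, before recurrence was asked for. Over all regions of a list, recurring or not, the median on X exceeded that of 3L and 3R by 0.073 in replicate 1 and 0.080 in replicate 2. The 200 X regions of replicate 1 that did not recur had a median score of 0.517, while the 146 on 3L had 0.456 and the 184 on 3R 0.434. Only 1 of the 200 scored above the median of the regions that recurred.

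X held fewer weak and more strong regions per Mb than the autosomal arms. When the scores were split at the quartiles of the 3L and 3R regions, X had 4.95 regions per Mb in the lowest class and 3L and 3R had 7.49, a ratio of 0.66. In the 3 classes above it the ratios were 1.37, 1.41 and 1.58. The replicate 2 regions gave 0.70, 1.35, 1.40 and 1.49. X thus had fewer regions per Mb than the background in the weakest class and more in each of the others, in both lists.

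**Figure D1:**
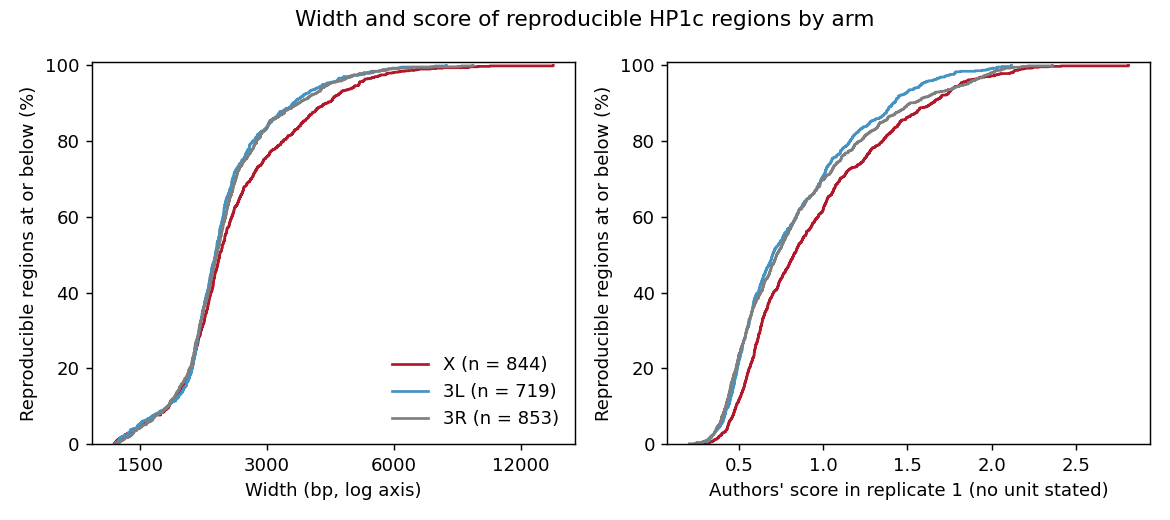
Cumulative share of reproducible HP1c regions by width (left, log axis) and by the authors' replicate 1 score (right) on X (844 regions), 3L (719) and 3R (853). The X curve for score lies to the right of both arms, with medians of 0.827, 0.701 and 0.727, while the width curves part only above about the median.

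Scores in the 2 replicates ranked the X regions alike. Spearman's rho between a region's score and that of its partner was 0.77 across the 844 regions, beside 0.77 on 3L and 0.82 on 3R. It is given as a description because the regions share libraries and some share a partner. Their ranks, taken within each full list, differed by a median of 449.5 places, and 457 regions (54.1%) lay within 500 places. By contrast, the score of a region was hardly related to that of the next region along X, with a rho of 0.035 in replicate 1 and 0.048 in replicate 2. Neighbouring regions thus had nearly unrelated scores, while the rank of a region itself recurred in the second sample.

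**Figure D2:**
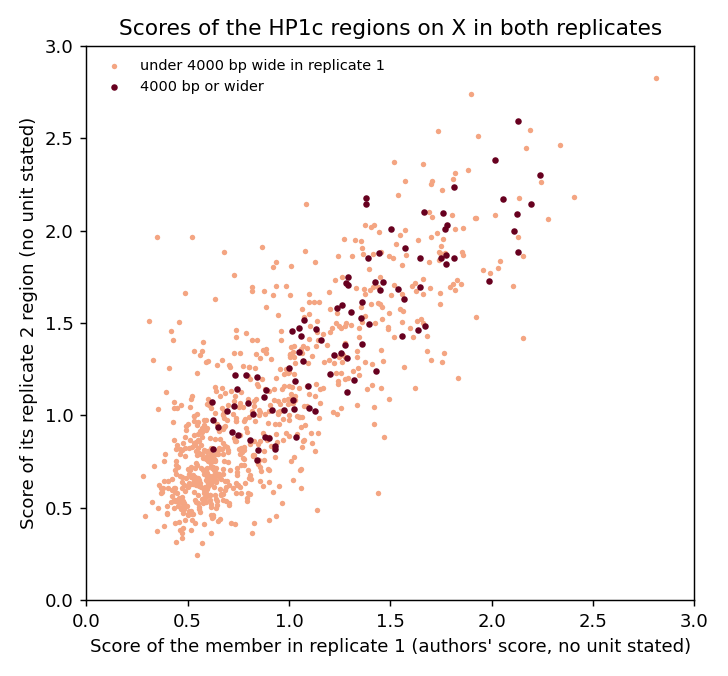
Authors' score of each of the 844 X regions in replicate 1 (horizontal) against that of its replicate 2 partner (vertical), with the 93 regions of 4000 bp or more in dark. The points rise together (Spearman rho 0.77), and the wide regions lie in the middle and upper part of the cloud.

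The strongest regions overlapped in large part between the lists. Of the X regions, 138 were among the top 10% of the whole replicate 1 list, and 96 (11.4% of the 844) were in the top 10% of both lists. On 3L 42 regions (5.84%) and on 3R 73 (8.56%) were in the top 10% of both. The top 10% of the replicate 1 list held 68 reproducible regions on 3L and 107 on 3R, so the shares also follow how many strong regions each arm had. Of the 100 strongest X regions in replicate 1, 66 had a partner among the 100 strongest on X in replicate 2.

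The strongest region on X was X 1772556 to 1775604, 3049 bp wide, with a score of 2.81 in replicate 1 and 2.83 in replicate 2. It ranked first on X in both. X 17595726 to 17598360 followed with 2.41 and 2.18, and X 5222288 to 5224952 with 2.34 and 2.46. X 6117231 to 6119617, a region standing alone with at least 28790 bp free of reproducible regions on each side, scored 2.28 and 2.06. X 1723554 to 1726290 scored 2.24 and 2.27. These regions were high in both samples and, at 2387 to 3049 bp, wider than the X median of 2320.5 bp but under 4000 bp.

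The next regions by score included the widest of the 10 strongest. X 5637962 to 5642797, 4836 bp wide, scored 2.24 and 2.30. X 19556157 to 19563688, 7532 bp wide, scored 2.20 and 2.15. X 9446745 to 9449628 scored 2.19 and 2.55, and X 17400158 to 17402755 scored 2.17 and 2.45. The last of the 10, X 2539162 to 2543135, was less alike between samples, with 2.16 in replicate 1 and 1.42 in replicate 2, ranks 10 and 214 on X. For the other 9, the partner ranked among the 50 strongest on X in replicate 2.

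Most X regions were of nearly uniform width, with a tail of wide ones. The median width was 2320.5 bp (interquartile range 2040.25 to 2949.25), against 2265 bp on 3L and 2283 bp on 3R. The lower quartiles, 2037.5 bp and 2023 bp on the autosomal arms, hardly differed from that of X, but the 90th percentile was 4127 bp on X against 3455 bp and 3563 bp. Regions of 4000 bp or more numbered 93 on X (11.0%), 41 on 3L (5.70%) and 58 on 3R (6.80%). In replicate 2 their shares were 13.6%, 7.62% and 6.12%. On X they held 21.6% of all bases in reproducible regions, against 11.7% on 3L and 13.6% on 3R.

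Counted per Mb and split at the width quartiles of the 3L and 3R regions, the ratio of X to them was 1.61 in the widest class of replicate 1 and 1.84 in that of replicate 2. In the narrower classes the ratios were 1.20, 1.09 and 1.12 in replicate 1 and 1.24, 0.94 and 0.92 in replicate 2. The ratios of the 2 middle classes lay on different sides of 1 in the 2 lists, and that of the widest class was the highest in both.

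Width and score went together on X. The 174 regions under 2000 bp had a median score of 0.488, the 466 from 2000 to under 3000 bp 0.899, the 111 from 3000 to under 4000 bp 1.02 and the 93 wider ones 1.28. Their partners in replicate 2 had median scores of 0.645, 1.04, 1.29 and 1.43 in the same order. Both measures come from the same calls, and whether 1 sets the other was not tested.

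The 5 widest regions were not among the strongest. X 7590067 to 7604395, at 14329 bp the widest, scored 1.36 in replicate 1, and its partner of 16756 bp scored 1.62. X 2189207 to 2199337, 10131 bp wide, scored 1.29 and met 2 replicate 2 regions, the longer overlap being with 1 that scored 1.13. X 11340293 to 11349791, 9499 bp, scored 0.976 and 1.03. X 8784270 to 8793344, 9075 bp, scored 1.22 and 1.33 (partner 12182 bp wide). X 4822943 to 4831923, 8981 bp, scored 1.29 against 1.75 for its partner of 7132 bp. Broad enrichment at these places was seen in both samples, though 2 of the 5, X 2189207 to 2199337 and X 4822943 to 4831923, met 2 replicate 2 regions. The latter was itself followed by another replicate 1 region after 2 bp.

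Reproducible regions on X lay close together. The median gap from the end of a region to the start of the next was 8582 bp, against 12751.5 bp on 3L and 11663 bp on 3R. In replicate 2 the median gaps were 9053, 13273 and 11604 bp. Of the 843 gaps on X, 453 (53.7%) were at most 10000 bp, against 45.0% on 3L and 45.7% on 3R, and 78 (9.25%) were at most 1000 bp. Since X has more regions per Mb, shorter gaps go with its density and are no separate result.

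Regions linked by gaps of at most 10 kb were counted as a chain. On X the 844 regions formed 391 chains, of which 193 were regions on their own and 90 were pairs. Chains of 3 or more held 471 regions (55.8%), against 43.5% on 3L and 45.1% on 3R. Chains of 5 or more numbered 38 on X, 18 on 3L and 23 on 3R, and held 27.8%, 15.4% and 16.1% of the regions. In replicate 2 these last shares were 29.9%, 13.8% and 13.9%. With a fixed gap of 10 kb, larger shares in chains also go with the higher density of X and were not separated from it. The variance over the mean of counts in bins of 100 kb was 2.06 on X, within the range of 3L (2.08) and 3R (1.92). The mean counts differed (3.76 on X, 2.93 on 3L and 3.06 on 3R), and dividing by the mean need not remove its influence.

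**Figure D3:**
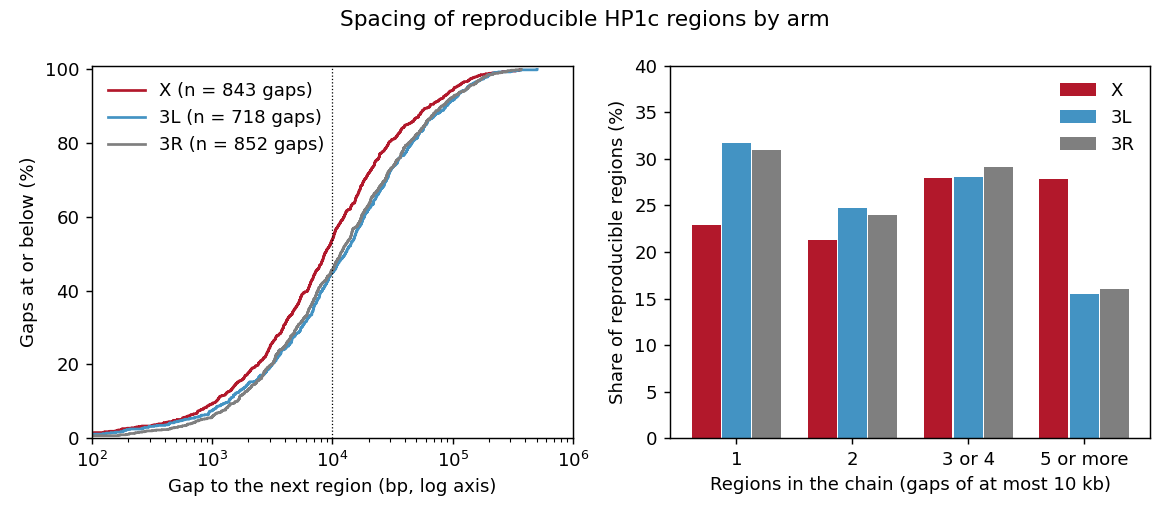
Left, cumulative share of gaps between consecutive reproducible regions on X (843 gaps), 3L (718) and 3R (852) on a log axis that begins at 100 bp, with a dotted line at 10000 bp. Right, share of regions by the size of their chain; 27.8% of the X regions are in chains of 5 or more, against 15.4% and 16.1%.

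Regions on their own had lower median scores than those in company, though the classes overlapped widely. On X their median score was 0.703, against 0.874 in pairs, 0.871 in chains of 3 or 4 and 0.841 in chains of 5 or more. In replicate 2 the medians were 0.884, 1.01, 1.07 and 1.02. The interquartile range in replicate 1 was 0.562 to 1.06 for lone regions on X and 0.618 to 1.26 for pairs. Score was hardly related to the gap to the nearest reproducible region on X, with a rho of -0.057 in replicate 1 and -0.11 in replicate 2. On 3L, lone regions scored 0.659 against 0.704 to 0.729 in the other classes, and on 3R 0.692 against 0.717 to 0.799. On X the largest step lay between lone regions and pairs in both lists, and chains of 5 or more were no stronger than pairs in replicate 1. On 3R the replicate 1 median rose at each class, from 0.692 through 0.717 and 0.749 to 0.799. This did not recur in replicate 2, where the 3R medians were 0.779, 0.936, 0.898 and 1.07.

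The largest chains on X had 9 regions each. The chain X 1821149 to 1879334 spanned 58186 bp with 9 regions in each replicate, and its scores ran from 0.398 to 1.52 in replicate 1 and from 0.510 to 1.43 in replicate 2. In the same window of 1 to 2 Mb, the chain X 1925275 to 1979055 held 9 regions in each replicate over 53781 bp, which covered 49.9% of it, with median scores of 1.02 and 1.03. Its strongest region in replicate 1, X 1954107 to 1956792, scored 1.75. In both chains every region of 1 sample had its own counterpart in the other.

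The chain X 16675299 to 16731218 had 9 recurring regions, and 10 in all, in replicate 1 but 8 regions in replicate 2. A replicate 2 region from 16701877 to 16711839 spanned 2 of the replicate 1 regions there. Its region X 16684276 to 16687317, scored 1.08 in replicate 1 and 2.15 in replicate 2. The chain X 17573164 to 17618087 held 9 regions in both samples over 44924 bp. It contained the second strongest region of X (score 2.41), yet its median was 0.608, and 6 of its 9 regions scored at most 0.630. The chain X 6549128 to 6604037 had 8 regions in both, covering 50.4% of 54910 bp, with 1 of 1.76 at X 6587720 to 6594525 whose partner scored 2.10. Strong and weak regions thus sat side by side within chains.

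**Figure D4:**
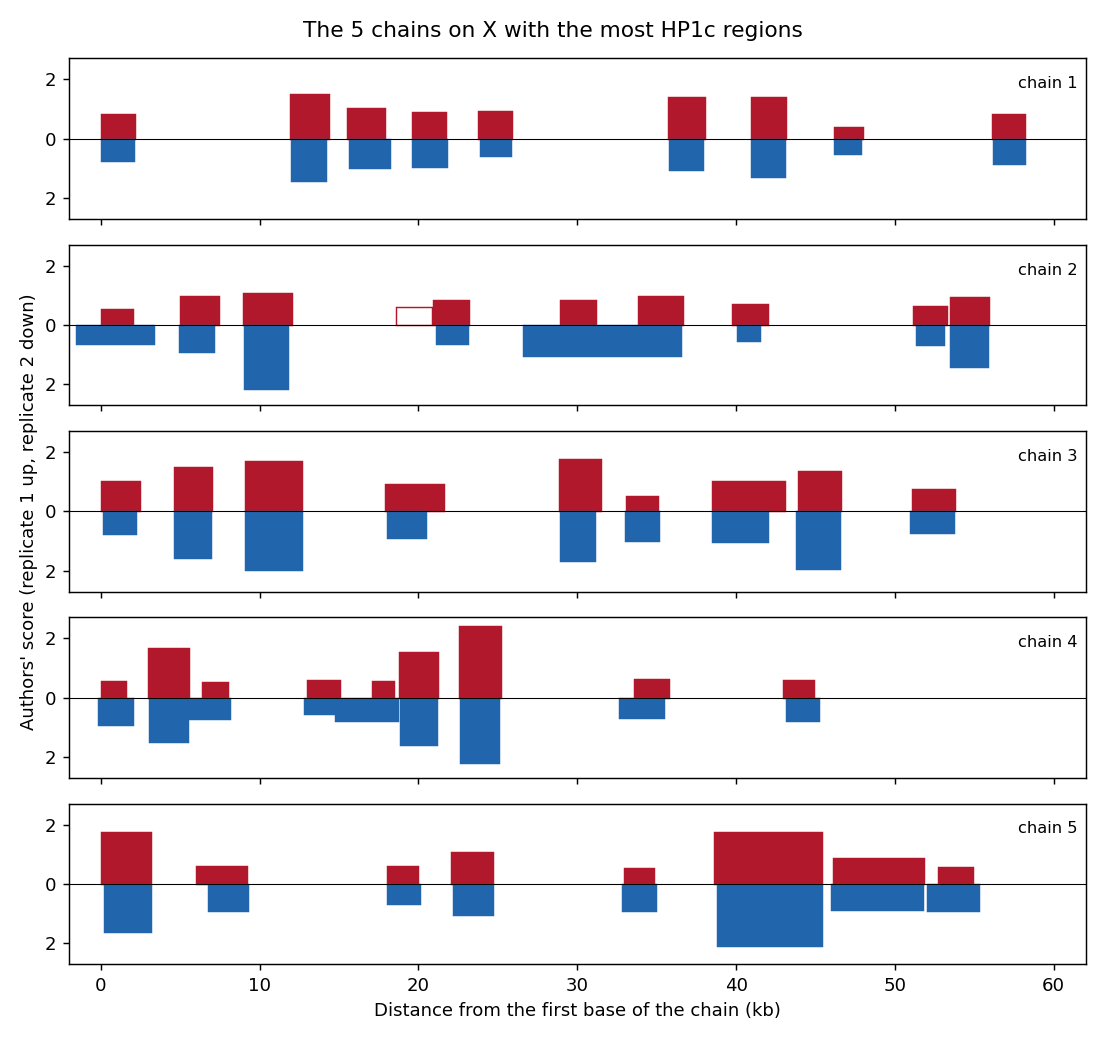
The 5 chains on X with the most reproducible regions, each drawn from its first base (kb); the height of a box is the authors' score, upward for replicate 1 and downward for replicate 2, and an open box is a region that did not recur. Boxes of both replicates stand opposite each other, with 9, 9, 9, 9 and 8 recurring regions in replicate 1 from top to bottom. The order is by number of regions and then by span.

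Along X the density was uneven. The 22 full windows of 1 Mb held between 21 and 57 regions in replicate 1, with a mean of 38.2 (SD 9.86), and between 19 and 55 in replicate 2. The richest window was 6 to 7 Mb, with 57 and 55 regions covering 15.8% and 16.6% of it. Windows with 21 in replicate 1 were 4 to 5 Mb and 21 to 22 Mb, and 7 to 8 Mb, next to the richest, held 25 in both. Spearman's rho of the counts between replicates was 0.99 over these windows, which is in part fixed because both counts are of overlapping regions. Windows with more regions did not have stronger ones: rho between number and median score was -0.14 in replicate 1 and -0.13 in replicate 2.

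The end of X nearest the centromere was the poorest in HP1c regions. The 10% of the arm nearest the centromere had 21.0 regions per Mb when replicate 1 was counted and 20.1 for replicate 2, whereas the part from 70% to 80% of the length had 47.7 and 47.3. The last 20% had 30.8 per Mb against 40.7 in the middle 60%, a ratio of 0.76 (0.75 in replicate 2). On 3L the ratio was 0.66, and on 3R 1.05, so a poorer end was shared with 3L and not with 3R. The low value came from the last 10% alone: the part from 80% to 90% had 40.6 per Mb on X and 29.7 on 3L, close to the middle of each arm (40.7 and 30.0). The 47 regions in that last 10% were not weak: their median score was 0.841 in replicate 1, where all X regions had 0.827, and 1.21 in replicate 2, where all had 1.00. The 20% nearest the telomere had 35.2 per Mb.

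**Figure D5:**
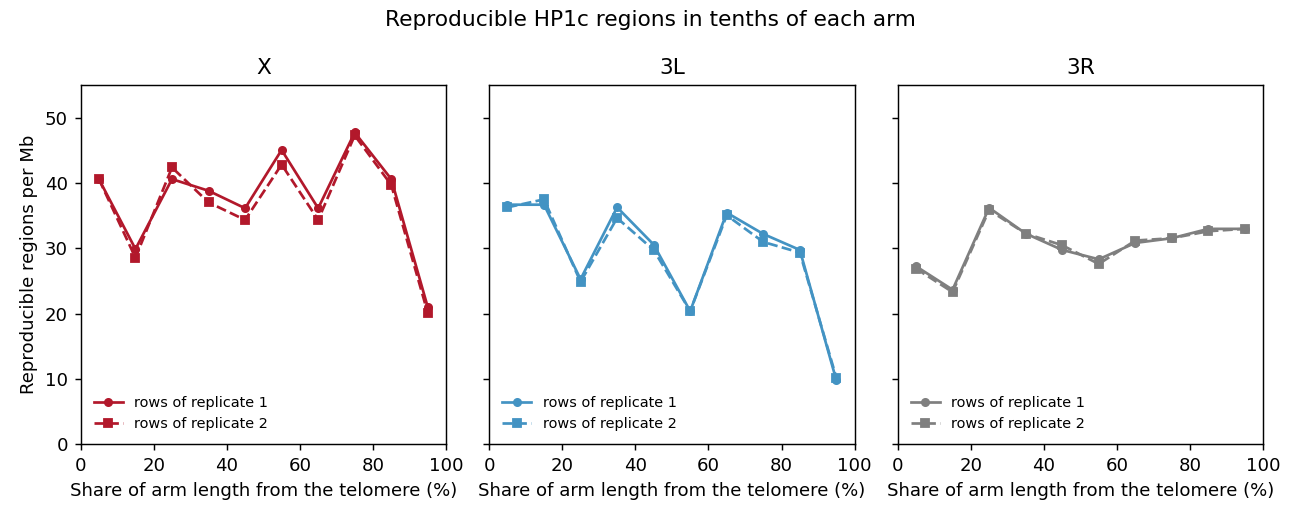
Reproducible HP1c regions per Mb in steps of 10% of the length of X, 3L and 3R, from the telomere (0%) to the centromere (100%), counted in replicate 1 (solid) and replicate 2 (dashed). On X the last step has 21.0 and 20.1 per Mb, and on 3L 9.78 and 10.2, while on 3R it has 33.0 in both.

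Long stretches of X had no reproducible region. There were 48 gaps over 100 kb, adding up to 35.1% of X, against 40.6% of 3L and 38.7% of 3R. The longest was X 22036648 to 22405744 (369097 bp), with no replicate 1 region and 1 replicate 2 region inside. X 20528937 to 20887922 (358986 bp) had 4 regions of each replicate, none overlapping, with scores up to 0.490 and 0.681. X 7232246 to 7585898 (353653 bp) had 3 and 4. It lies between a chain of 7 regions, X 7178681 to 7232245, and the stretch with the widest region of X. X 21506162 to 21840808 (334647 bp) had none in replicate 1 and 1 in replicate 2. X 2685318 to 2989063 (303746 bp) held 8 replicate 1 regions and 2 replicate 2 regions, none of which met. The highest score among regions inside these 5 gaps was 0.665 in replicate 1 and 0.723 in replicate 2, below the medians of reproducible regions on X in the same lists. The combined list had regions in 4 of the 5 gaps: 7 in X 21506162 to 21840808 with scores up to 3.89, 5 in X 2685318 to 2989063 up to 2.07, 4 in X 22036648 to 22405744 up to 1.65 and 2 in X 7232246 to 7585898 up to 0.442.

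The authors also deposited a list for the replicate set, here the combined list, and it missed more of the reproducible regions on X than on the autosomal arms. It overlapped 745 of the 844 (88.3%), against 96.7% on 3L and 96.8% on 3R. Read from replicate 2 the shares were 88.3%, 96.3% and 96.9%. The 99 X regions without a combined region had a median replicate 1 score of 0.549, and the others 0.899. The arms differed also at like scores. Among regions in the lowest 25% of the replicate 1 list, 34 of 88 on X (38.6%) had no combined region, against 11 of 134 on 3L (8.21%) and 17 of 178 on 3R (9.55%). In the class above, the shares were 23.9%, 6.42% and 5.49%. In the next it was 6.64% on X, 1 of 202 regions on 3L and 0 of 245 on 3R, which allows a share of up to 1.22%. This limit covers counting error only and takes the regions as independent, which neighbouring regions need not be. Among the strongest 25%, 1 of 303 regions on X was missed.

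The missed X regions were scattered and not a single stretch. They fell in 82 runs of at most 3 consecutive regions, and the fullest window, 0 to 1 Mb, held 11 of them among its 29 regions. The strongest, picked after the values were seen, was X 2426888 to 2429151, with 1.06 in replicate 1 and 0.608 in replicate 2. Over all regions of each list, recurring or not, the share overlapped by the combined list was lower on X than on 3L and 3R by 11.8 percentage points in replicate 1 and 14.5 in replicate 2, and by 8.49 for the reproducible ones. How the combined list was made is not given in the sources used here, and its part in the difference was not tested. In the other direction, reproducible regions met 754 of the 1029 combined regions on X (73.3%), against 51.1% on 3L and 48.9% on 3R. Among them, 21 combined regions on X took in 2 or more reproducible regions, the most being 4 in X 8776774 to 8807805 (31032 bp), also picked after the values were seen.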

How the data were processed

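Chromatin of Oregon-R embryos was immunoprecipitated with an antibody against HP1c in 2 samples, with 2 input samples, per the labels. The submitters' processing notes name Bowtie 0.12.7 and no region caller or threshold. The deposited lists give for each region a score made by the authors, of unstated scale, and coordinates on FlyBase release 5, per the file headers. They hold no read counts, so the depth is unknown. Inputs enter only through the authors' calls.

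Replicate 1 regions overlapping a replicate 2 region by 1 base or more were taken. Widths, gaps, chains (gaps of at most 10 kb), windows of 1 Mb, steps of 10% of each arm and the outer 20% were computed from these coordinates, with arm lengths from the headers. The centromere lies at the high coordinates of X and 3L and at the low ones of 3R. Shares that recur have exact 95% intervals. No test was run, because both replicates chose the regions and 2 samples allow none.

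Regions named are the 10 with the highest replicate 1 score, the 5 widest, the 5 chains with the most regions, the 5 longest gaps, and the 3 nearest to the rule on each side; others are said to be picked after their values were seen, or illustrate a named chain or gap. The choice of X, the measures and the lists were made with earlier results of these data known. The scripts were tested on simulated lists with known overlaps and chains. Regions carry no gene names or sequences here, because the available gene table uses release 6. Python 3.11.15, numpy 2.4.6, pandas 2.3.3, scipy 1.17.1 and matplotlib 3.10.9 were used.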

Additional observations from a re-analysis of the deposited data

How the results depend on the processing

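Of 74 values under alternative settings, 30 stayed close to the reported value, 44 moved further and 0 changed direction. The number of regions has no direction to change, and a difference that fell to 0 was counted as moved. Density in the combined list itself was not among the settings. Close meant within 1.5 times for the number of regions, and otherwise within the standard deviation between the replicate 1 and replicate 2 values, which is small here. Its small size is in part fixed, because both values are of overlapping regions. It is also always smaller than the difference between the 2 values it comes from. The setting with replicate 2 regions was therefore bound to count as moved for every result except the number of regions. Values below are ratios of X to 3L and 3R for density, coverage, width and gap, differences from them for score, chains and the combined list, and the ratio of the last 20% to the middle for position.

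When the overlap had to reach 50% in both regions, density was 1.21, coverage 1.32, chains 11.1 percentage points (11.4 as reported), position 0.80 and rho of scores 0.82. With the midpoint inside the other region, position was 0.75. Replicate 2 regions gave density 1.23, coverage 1.39, width 1.05 (1.02 as reported), score 0.122, gap 0.75 (0.71 as reported), chains 11.6, position 0.75, combined list -8.33 and rho 0.81. Merging regions closer than 500 bp gave density 1.24, chains 10.6, position 0.79 and combined list -8.66. The 50% of regions with the highest scores left 478 on X, with density 1.48, coverage 1.62, width 1.05, score 0.033, gap 0.62, chains 16.7, position 0.69 and combined list 0. Asking for 1 replicate alone gave density 1.28 for both, coverage 1.37 to 1.40, score 0.073 to 0.080, gap 0.71 to 0.79, chains 11.8 to 12.7, position 0.73 to 0.74 and combined list -14.5 to -11.8. Chain gaps of 5 kb and 20 kb gave 9.28 and 12.1, distances between midpoints a gap ratio of 0.79, and an end part of 10% a position of 0.53. The causes of these moves were not tested.

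No paired analysis was possible because the deposited lists are of the ChIP samples alone, and no result comes from a test. Unknown depth limits what a region missing from a list can show.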

Other observations

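Narrow, weak replicate 1 regions could lie inside a wide, strong region of replicate 2. The 4 X regions with the largest difference in rank, picked after their values were seen, were all of this kind. In 3 of the 4 the same wide region also took in a stronger replicate 1 region next to the weak 1, so these places were not weak in replicate 1 as a whole. X 9475369 to 9476709, 1341 bp wide, scored 0.348 (rank 4512 of 4669), and the replicate 2 region of 8229 bp around it scored 1.97 (rank 194 of 4801); it also held X 9476813 to 9480650, which scored 2.13 in replicate 1. X 21504774 to 21506161 scored 0.309 inside a region of 6308 bp that scored 1.51 and also met X 21499980 to 21503876, which scored 1.63 in replicate 1. X 11784954 to 11786767 scored 0.416 inside 1 of 8222 bp at 1.45, which also met X 11778561 to 11783389 with 1.02 in replicate 1. X 13573648 to 13575106, with 0.327, was the sole reproducible replicate 1 region inside its partner of 4091 bp, which scored 1.30. Over all 844, 31 regions (3.67%) lay more than 2000 places apart in rank.

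Among X regions found in 1 sample alone, the strongest of each were picked after their values were seen. That of replicate 1 was X 17792380 to 17794414, with a score of 1.10, 6103 bp from the nearest replicate 2 region. That of replicate 2 was X 215 to 1957, at the first bases of the X sequence, with a score of 1.497 and 16254 bp from the nearest replicate 1 region. Of the 240 X regions of replicate 2 that did not recur, 2 scored above the median of those that did.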
